A study of Drosophila melanogaster with 2 samples.

Results

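The BMP pathway genes examined here were the 10 genes dpp, scw, tkv, sax, Mad, Med, shn, brk, sog and tld, out of 13968 protein-coding genes of the Drosophila melanogaster annotation. They were chosen by name, and all 10 were found in the annotation. For each gene, every peak with its summit inside the gene or within 10 kb of its body was taken from 8 deposited peak lists. The peaks came from chromatin immunoprecipitation and sequencing (ChIP-seq) with an antibody to GFP. The material was whole embryos of the strain wor-GFP, aged 0 to 18 h, in which wor is fused to eGFP by an insertion that targets wor. The series has 1 group of 2 biological replicates, so there is no contrast between conditions and no test across embryos. Whole embryos mix all tissues, so a peak cannot be given to a cell type, and no control library was analysed here.

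Worniu, the product of wor, is a zinc finger protein of the Snail family that acts in neuroblasts, which are neural stem cells. BMP ligands bind pairs of receptor kinases, which phosphorylate Mad, and Mad enters the nucleus with its partner Medea to regulate target genes. In the early embryo this signal sets dorsal fates, and its restriction in the ventral and lateral ectoderm is part of how the neurogenic region is laid down. Dpp and Scw are the ligands, Tkv and Sax are type I receptors, Sog binds and restrains the ligands, and Tolloid, the product of tld, cleaves Sog. Schnurri, the product of shn, joins Mad and Medea to repress brk, whose own product, Brinker, represses BMP targets.

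The main list, called the conservative list by the authors, drew on both replicates. It was thresholded by IDR, the irreproducible discovery rate, which scores how well peaks keep their rank between sets. It held 3045 peaks on the 7 chromosome arms. In it, 7 of the 10 genes had at least 1 peak within 10 kb, namely shn with 10, sog with 5, dpp and brk with 3 each, and Mad, Med and sax with 1 each. The genes tkv, scw and tld had none. By the same window 46.7% of all protein-coding genes had a peak, so having a peak nearby is common. The second list of both replicates gave 7 genes against 46.9% of all genes, the list of replicate 1 gave 7 against 41.3%, and that of replicate 2 gave 6 against 36.4%, where sax was the gene missing. Within the gene body alone, shn, dpp, Mad and sog had a conservative peak, 4 of 10 against 8.5% of all genes. Gene length bears on this count, since shn, dpp and sog have bodies of at least 30 kb. No share by body alone was computed for genes of that length. Among genes with a body of at least 30 kb 61.6% had a conservative peak within 10 kb, and of the 4 members of that length (shn, tkv, dpp and sog) 3 did. In all, 24 conservative peaks fell in 402364 bp of windows, 0.596 per 10 kb, where the arms as a whole held 0.221 per 10 kb. The arm value is over all arm sequence and not over gene windows, and shn gave 10 of the 24 peaks.

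**Figure D1:**
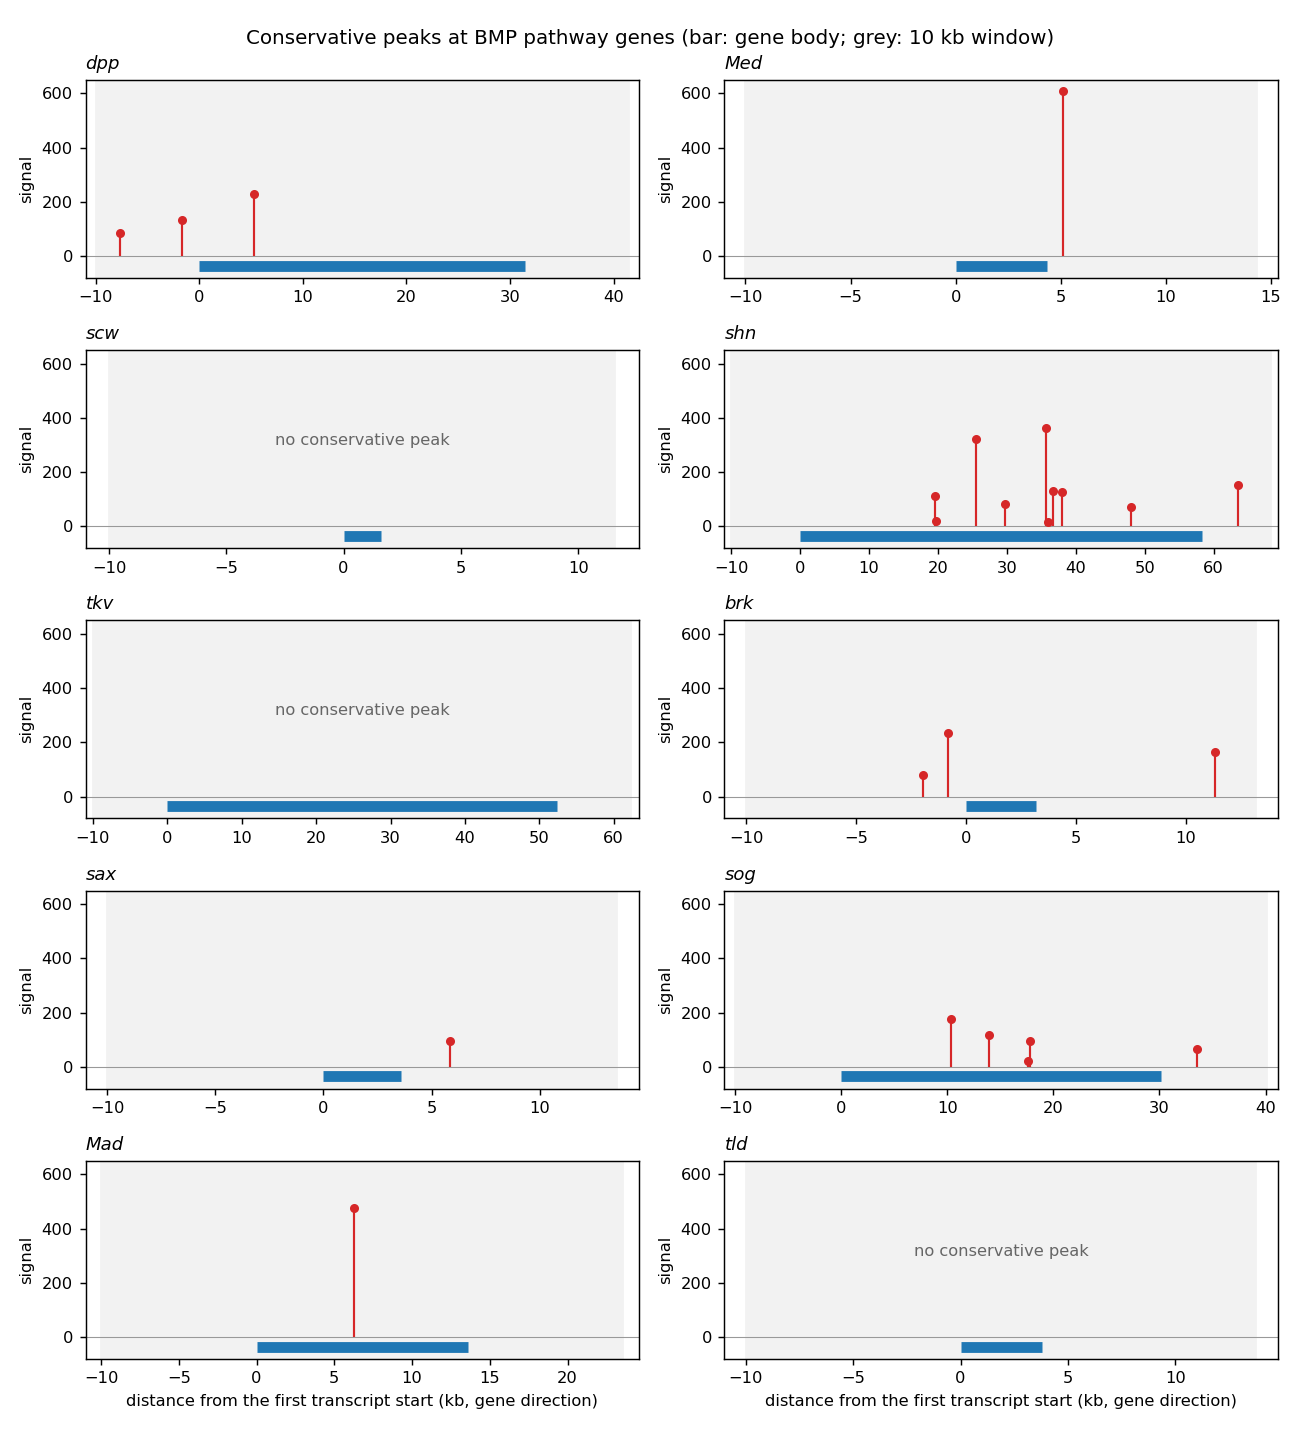
Signal of each conservative peak (vertical axis, the authors' value per peak) against the distance of its summit from the most upstream transcript start of the gene in kb, in the direction of the gene, for all 10 genes. Blue bars are gene bodies and grey areas the windows of 10 kb. The highest peaks are the single peaks of Med (608) and Mad (476), and tkv, scw and tld have none.

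The sequence at the strongest peak of 5 genes is shown to let a reader see what lay under the summits. Each is 101 bp of the reference assembly dm6, written 5′ to 3′ on the plus strand, and the capital marks the summit base.
Med, chr3R:31616120-31616220: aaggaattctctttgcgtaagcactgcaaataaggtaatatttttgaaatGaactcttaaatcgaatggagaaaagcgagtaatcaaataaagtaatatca
Mad, chr2L:3153333-3153433: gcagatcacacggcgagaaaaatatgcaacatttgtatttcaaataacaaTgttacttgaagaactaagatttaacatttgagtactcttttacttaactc
brk, chrX:7307051-7307151: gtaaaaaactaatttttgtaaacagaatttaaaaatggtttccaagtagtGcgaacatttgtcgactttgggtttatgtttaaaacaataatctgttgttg
dpp, chr2L:2433603-2433703: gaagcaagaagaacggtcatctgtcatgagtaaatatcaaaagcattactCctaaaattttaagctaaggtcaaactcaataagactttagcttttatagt
sog, chrX:15623002-15623102: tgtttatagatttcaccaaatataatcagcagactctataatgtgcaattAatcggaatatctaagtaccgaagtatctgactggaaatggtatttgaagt
These 5 windows held none of the 7 motifs searched. The median GC content of all 24 summit windows of this length was 30.2% (range 21.8 to 54.5), beside 30.7% over all conservative peaks and 42.1% over the arms. Over the 21 peaks that overlap no stronger peak the range was 21.8 to 41.6%.

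Of the ligand genes, dpp (FBgn0000490, 2L 2428372 to 2459823, plus strand), which encodes a ligand of the BMP2/4 type, had 3 conservative peaks. The strongest lay in a dpp intron, 5281 bp downstream of the nearest dpp start, at 2L 2433471 to 2433834, with a signal of 228 and rank 528 of 3045. It had a signal of 110.5 in the list of replicate 1 (rank 619 of 2266) and of 117 in that of replicate 2 (rank 472 of 1793). Both replicates thus placed it in the upper part of their lists, with summits within 3 bp of the conservative summit. A peak 1708 bp upstream of the dpp start, in intergenic sequence at 2L 2426482 to 2426845, had a signal of 133 and rank 1248. It was also in both replicates' lists, with 66.6 in replicate 1 and 62.6 in replicate 2. The third peak, 7662 bp upstream, had a signal of 83.2 and lay 120 bp from a start of the neighbouring gene CG9886. It was in neither replicate's thresholded list, nor in the second list of both replicates. Replicate 1 alone had a further peak, 42.8, on the far side of the gene at 2L 2467722 to 2468057.

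The second ligand gene, scw (FBgn0005590, 2L 19699379 to 19700968, minus strand), had no peak in any of the 4 thresholded lists. Its surroundings were not blank in the longer ranked lists, which hold peaks of every score. There scw had 12 peaks in the ranked list behind the conservative one, 5.56 per 10 kb of window beside 4.54 on the arms. The strongest reached 38.9, rank 12716 of 62469. Replicate 1 had 4 ranked peaks, 1.85 per 10 kb beside 4.07 on the arms, and replicate 2 had 5, 2.32 beside 2.63. Their best signals were 19.1 and 24.3. The nearest conservative peak lay 57718 bp from the scw body.

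Of the receptor genes, tkv (FBgn0003716, 2L 5219000 to 5271384, minus strand) had no thresholded peak although its body is 52385 bp long. It had 63 peaks in the ranked list behind the conservative one, the most of the 10 genes there. That is 8.70 per 10 kb of window where the arms held 4.54, and Med had more by this measure, 9.45. Replicate 1 had 28 tkv peaks, 3.87 per 10 kb beside 4.07 on the arms, and replicate 2 had 27, 3.73 beside 2.63. In both of these lists shn had more peaks, 48 and 38. The strongest of the tkv peaks had a signal of 63.8 and rank 3456 of 62469. Its −log10 IDR was 1.13, and no peak of a thresholded list had a value under 2.00. The best tkv peak was 33.0 in replicate 1 (rank 3929 of 55955) and 30.8 in replicate 2 (rank 4482 of 36134), the first with its summit at 2L 5238517 and the second at 2L 5262833. No tkv peak was thus in the thresholded list of either replicate. The second type I receptor gene, sax (FBgn0003317, 2R 7806484 to 7810067, plus strand), had 1 conservative peak, at 2R 7812151 to 7812514, with a signal of 93.6 and rank 1981. It lay 2266 bp beyond the end of sax, and the nearest start, 171 bp away, was that of puml. Replicate 1 had it at 56.7 (rank 1662 of 2266). Replicate 2 had it only in its ranked list, at 42.6 with a −log10 IDR of 1.79.

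**Figure D2:**
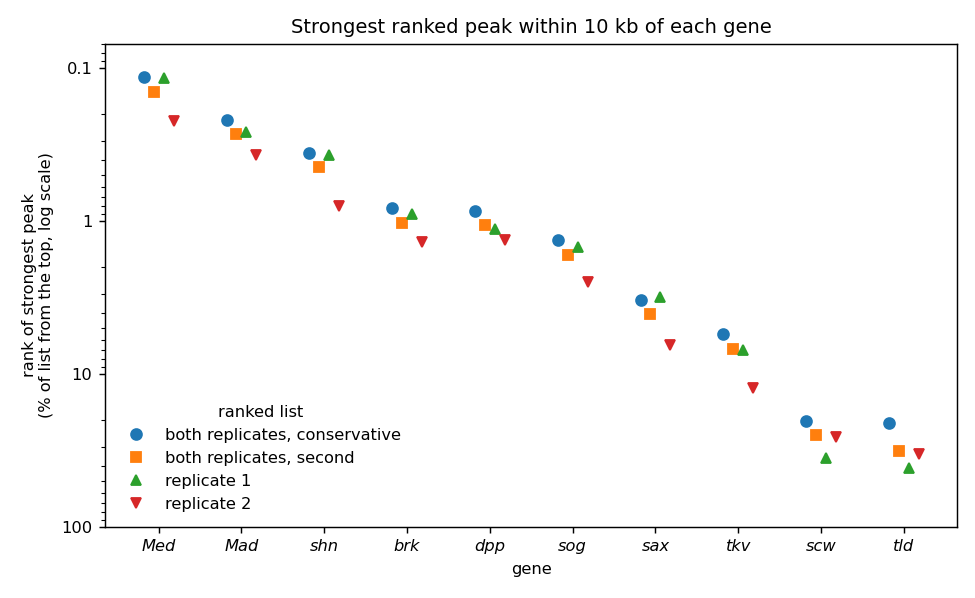
Rank of the strongest peak within 10 kb of each gene, as a percentage of the list counted from the top (logarithmic axis), in the 4 ranked lists. Genes run from the best rank, Med at 0.115%, to the lowest, tld at 21.1%, both in the ranked list behind the conservative one. In all 4 lists scw and tld rank below the other 8 genes.

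The Smad genes had the highest peaks of the 10 genes, 1 each. Mad (FBgn0011648, 2L 3146056 to 3159643, minus strand), whose product is the Smad phosphorylated by the receptors, had a peak in its intron at 2L 3153289 to 3153536. Its signal was 476, rank 131 of 3045, and the summit lay 630 bp from the start of the transcript Mad-RB. Replicate 1 gave 242 (rank 139 of 2266) and replicate 2 gave 222 (rank 130 of 1793), so the peak stood near the top of both lists. Medea, encoded by Med (FBgn0288966, 3R 31611046 to 31615375, plus strand), is the partner shared by Smads. The peak near Med was the highest of all 24, with a signal of 608 and rank 69, at 3R 31616044 to 31616300. Replicate 1 gave 335 (rank 61) and replicate 2 gave 269.8 (rank 77). This summit lay 795 bp beyond the end of Med and 10 bp from a start of Mnat9, which encodes an N-acetyltransferase. It falls within 10 kb of 6 protein-coding genes, and peak position alone does not tell which of them it serves.

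The Brinker gene, brk (FBgn0024250, X 7307939 to 7311132, plus strand), had 3 conservative peaks and none in its body. The strongest stood 838 bp upstream of its only start, at X 7306919 to 7307282, with a signal of 233 and rank 505. It had 128 in replicate 1 (rank 492) and 114 in replicate 2 (rank 487). A weaker peak stood 1964 bp upstream, at X 7305793 to 7306156, with 79.5 in the conservative list, 38.5 in replicate 1 and 46.8 in replicate 2. The third lay 8149 bp beyond the end of brk, at X 7319099 to 7319462, with 164 (rank 904), and had 83.3 in replicate 1 and 80.6 in replicate 2. All 3 were thus in every thresholded list. The nearest start to the third was that of Atg5, 4489 bp away, and all 3 also lay in introns of CG1677, a gene that spans this region. The second list of both replicates held 3 further brk peaks farther upstream. They stood 8425 bp upstream with 75.8, 5406 bp upstream with 63.8 and 5205 bp upstream with 13.8. Neither replicate's thresholded list held these 3.

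Because brk is repressed through sites that Schnurri, Mad and Medea bind together, matches to that silencer element were searched across each window, on both strands. The brk window held 8 matches, 3.45 per 10 kb, while the arms held 929 matches, 0.0675 per 10 kb. Since the element was taken up for its role at brk, the number of matches there is no independent result. The other 9 genes held 6 matches in all, and sog with 2 was the only one of them with more than 1. Where they had a match, the rate ran from 0.128 per 10 kb at shn to 0.421 at tld, also above that of the arms. The genes sax, Mad, Med and scw had 0. The 8 matches at brk are shown because they can be set against the peaks of this locus. Each is written 5′ to 3′ in the direction of the element. Distances upstream and downstream are counted from the brk start, and on that count the third brk peak stood 11342 bp downstream. Capitals mark the bases that the element fixes or, next to the start, limits to a purine.
brk match at 8211 bp upstream, chrX:7299721-7299735: GACGaCagagtGTCT
brk match at 8179 bp upstream, chrX:7299753-7299767: GGCGaCattctGTCT
brk match at 8027 bp upstream, chrX:7299905-7299919: GACGtCgctctGTCT
brk match at 7657 bp upstream, chrX:7300275-7300289: GGCGcCtctatGTCT
brk match at 6632 bp upstream, chrX:7301300-7301314: GGCGtCcgctcGTCT
brk match at 5180 bp upstream, chrX:7302752-7302766: GGCGgCcaaatGTCT
brk match at 2169 bp upstream, chrX:7305763-7305777: GACGaCggactGTCT
brk match at 9527 bp downstream, chrX:7317459-7317473: GGCGcCaaacaGTCT
The upstream matches ran from 8211 to 2169 bp before the brk start. None lay within 100 bp of a conservative summit of any member. The nearest was the match 2169 bp upstream, 205 bp from the summit of the weaker upstream peak, and it lay just outside that conservative peak but inside the replicate 1 peak there. The match 5180 bp upstream lay inside the weak peak 5205 bp upstream, in the second list of both replicates. A match is a description of letters and was not tested as a site.

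**Figure D3:**
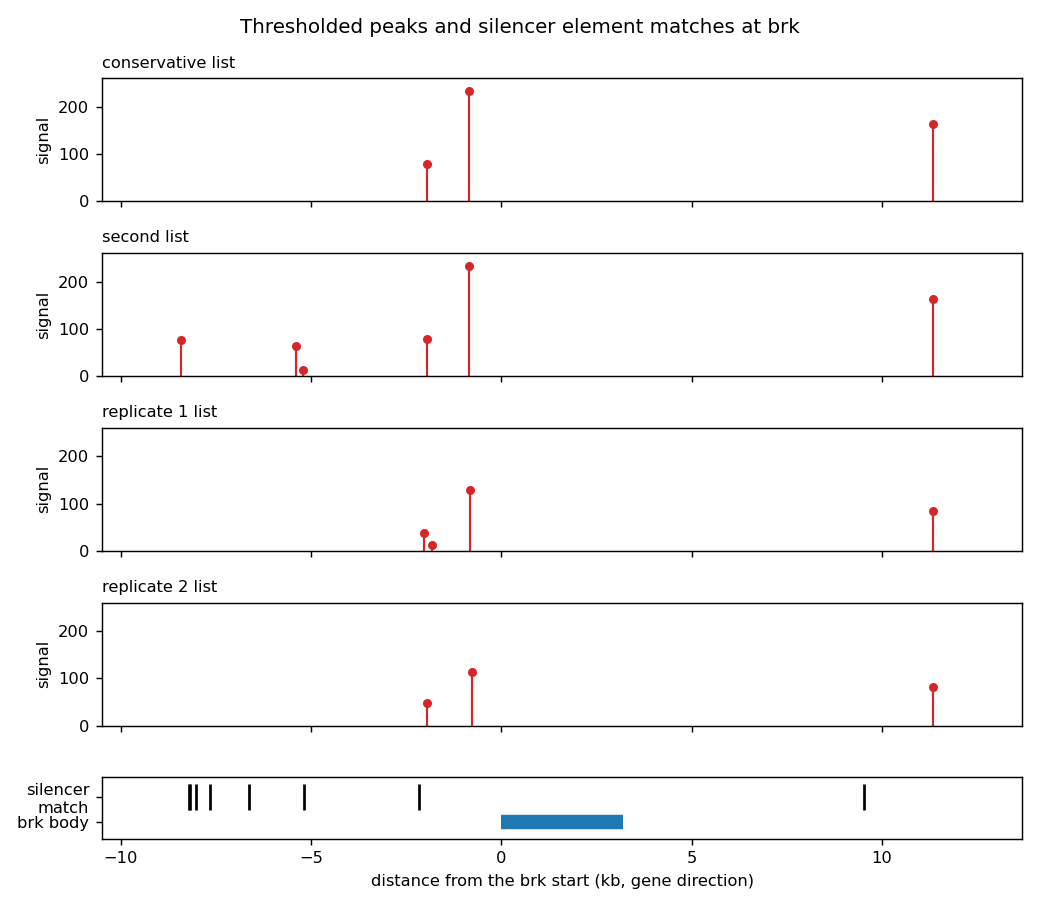
Signal of the thresholded peaks (vertical axes, the authors' value per peak, not scaled between lists) at brk in the 4 thresholded lists, against the distance from the brk start in kb. The bottom panel shows the brk body and the 8 silencer element matches. The peaks at 838 and 1964 bp upstream and the peak downstream appear in all 4 lists, with summits shifted by up to 65 bp, while most matches lie farther upstream.

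The Schnurri gene, shn (FBgn0003396, 2R 11159086 to 11217394, plus strand), had the most conservative peaks of the 10, with 10 in a window of 78309 bp, or 1.28 per 10 kb. Of all protein-coding genes, 0.043% (6 genes, shn among them) had at least as many by this window. Among genes of at least 30 kb the share was 0.746%. Of the 10 peaks, 9 lay in introns of shn, at 19538 to 48066 bp from its most upstream start, and none lay upstream of that stretch. The strongest was at 2R 11194642 to 11195005, with a signal of 362 and rank 214, and had 203 in replicate 1 (rank 198) and 154 in replicate 2 (rank 279). The next was at 2R 11184489 to 11184676, with 323 and rank 281, and had 168 in replicate 1 and 149 in replicate 2. These were the only shn peaks among the 304 strongest of the conservative list. Near the strongest, at 36655 and 38038 bp from the most upstream start, stood peaks of 129 and 128. They had 74.5 and 77.6 in replicate 1, and 67.4 and 72.2 in replicate 2. A peak 19538 bp from that start had 112, with 51.8 in replicate 1 and 64.3 in replicate 2. The peaks of 80.7 and 70.7 were in neither replicate's thresholded list. The second list of both replicates also held 10 shn peaks. It lacked that of 70.7, at 48066 bp, and had 1 of 54.4 elsewhere, 20146 bp from the most upstream start. Near the latter, replicate 1 alone had thresholded peaks of 44.6 and 11.4, at 20079 and 20283 bp. The conservative peaks of 18.5 and 15.2 each overlapped a stronger neighbour and shared its replicate peak, so 8 places along the window were distinct. The last, at 2R 11222376 to 11222739, had 151, lay 5164 bp beyond the end of shn and was 313 bp from the start of CG7737. No shn summit was within 1000 bp of an shn start, and the closest, 1152 bp away, lay by the start of shn-RB.

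Of the extracellular regulators, sog (FBgn0003463, X 15603283 to 15633434, minus strand), which encodes the fly Chordin, had 5 conservative peaks, 4 of them in its introns. They stood 10382 to 17789 bp downstream of the most upstream start, and 3488 to 10895 bp from the nearest sog start, that of sog-RE. The strongest, at X 15622972 to 15623104, had 175 and rank 818, with 94.0 in replicate 1 (rank 810) and 79.7 in replicate 2 (rank 878). The next, at X 15619327 to 15619690, had 117, with 52.3 in replicate 1 and 66.4 in replicate 2. Both were in each replicate's list. The peak at X 15615463 to 15615826 had 93.5 and was in the list of replicate 1 (43.3) but only in the ranked list of replicate 2 (43.1), and a peak of 23.1 overlapped it. The fifth, 65.2, stood 3367 bp beyond the end of sog and was in neither replicate's thresholded list nor the second list of both replicates. In contrast to these, tld (FBgn0003719, 3R 24749731 to 24753510, plus strand) had no peak in any thresholded list. Its best ranked peak had 38.4, rank 13196 of 62469, and the nearest conservative peak, of 537, lay 15557 bp from its body.

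All 24 conservative peaks overlapped a ranked peak of each replicate, and 17 overlapped a thresholded peak of both replicates. That is 70.8% (95% Wilson interval 50.8 to 85.1), beside 52.3% (50.6 to 54.1) of all 3045 conservative peaks. The lists of both replicates and those of each replicate come from the same libraries, so this is a description and no independent check. The peaks of 18.5 and 15.2 at shn count here through the replicate peak of their stronger neighbour, and with summits within 100 bp the number is 15. At 4 peaks neither replicate had a thresholded peak, namely shn (80.7 and 70.7), dpp (83.2) and sog (65.2). Those of 70.7, 83.2 and 65.2 were also absent from the second list of both replicates. In the ranked list behind it their −log10 IDR was 0.384, 0.252 and 0.713. The Wilson intervals cover counting error over peaks only and treat peaks as independent. The depth of the libraries is unknown.

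**Figure D4:**
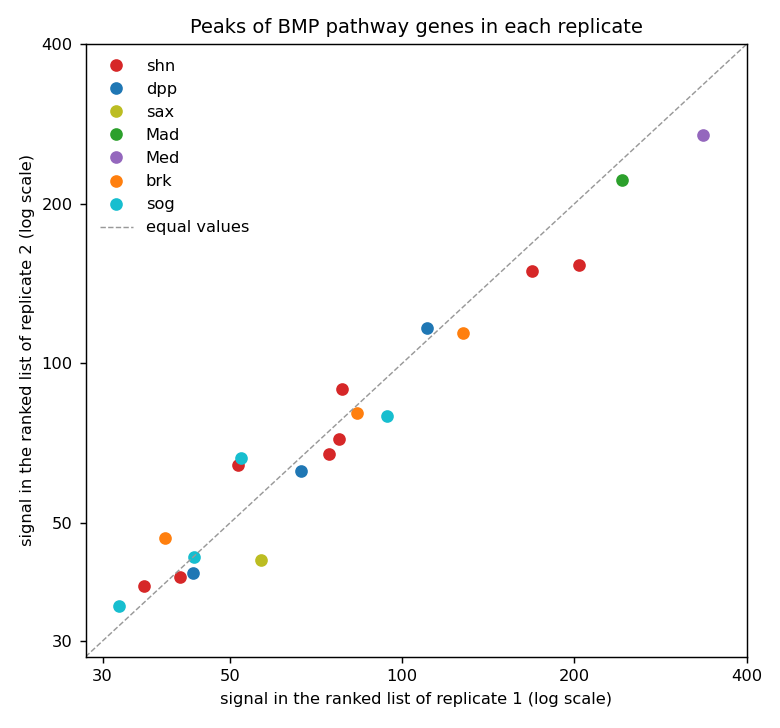
Signal of the 21 member peaks that overlap no stronger peak, in the ranked list of replicate 1 (horizontal) and of replicate 2 (vertical), both on logarithmic axes, coloured by gene. The dashed line marks equal values, and signals are not scaled between lists. Med (335 and 269.8) and Mad (242 and 222) are highest in both replicates.

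Most peaks at these genes lay in introns. Of the 24 summits, 4 were within 500 bp of an annotated transcript start, 16.7% (interval 6.68 to 35.9), beside 41.6% (39.9 to 43.4) of all conservative peaks. Those 4 starts belonged to neighbours, Mnat9, CG9886, puml and CG7737, and none to a member. Summits in introns alone made up 18 of 24, 75.0% (55.1 to 88.0), beside 52.2% (50.4 to 54.0). Of these, 15 lay in introns of the member, with 9 in shn and 4 in sog. The brk peaks lay outside brk, in introns of CG1677. The intervals treat peaks as independent, although 10 of the 24 were at shn, 5 at sog, and 3 overlapped a stronger peak. In 18 of the 24 the nearest protein-coding start was that of the member, and this covered shn, dpp, Mad, brk and sog, 5 of 10 genes beside 14.6% of all genes. The 14.6% sets no limit on distance, while the member peaks lay within 10 kb of the body. Gene length bears on this count too, since shn, dpp and sog have bodies of at least 30 kb. The 304 strongest peaks of the list, 9.98% of it, held 4 of the 24, the peaks of Med and Mad and the 2 highest of shn, or 16.7%. Median signal was 122.5 for the 24 peaks and 115.1 for the list. No test was made on these shares, since the genes were chosen with other results of the same data known.

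**Figure D5:**
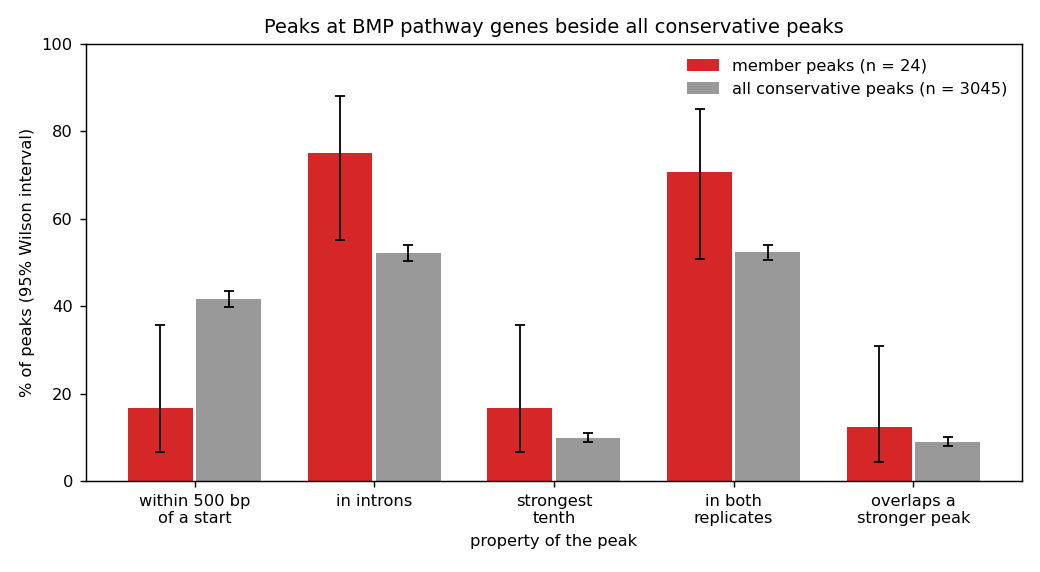
Percentage of peaks with each property, for the 24 peaks at BMP pathway genes (red) and all 3045 conservative peaks (grey), with 95% Wilson intervals that cover counting error only. Within 500 bp of a start lay 16.7% beside 41.6%, and in introns 75.0% beside 52.2%, with no test of either difference.

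The 7 motifs were searched around the summits. Any of them lay within 50 bp of 2 of 24, 8.33% beside 12.3%, and within 100 bp of 7 of 24, 29.2% beside 29.9%. Within 50 bp, on both strands, the Snail-type E-box CAGGTG was in 0 of 24 peaks, which allows a share of up to 12.5%, beside 2.04% of all conservative peaks. The Zelda-type CAGGTAG was in 0 beside 0.394%, the DRE TATCGATA in 0 beside 0.558%, and the Brinker-type cores GGCGCC and GGCGTC in 0 each beside 1.48% and 0.952%. These cores can form part of a silencer element, which was in 0 of 24 and 0 of 3045. The GAGA motif GAGAG was in the same number, 2 of 24, beside 7.72%. The interval for 2 of 24 runs from 2.32% to 25.8%. Within 100 bp, 1 of the 24 had CAGGTG, 4.17% beside 4.56%.

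Of 28 other genes of the BMP and TGF-beta pathways, 17 (60.7%) had a conservative peak within 10 kb, beside 46.7% of all protein-coding genes. All 3 receptor genes had one, with signals of 284 for wit, a type II receptor gene, 213 for put, the type II partner of Tkv, and 131 for babo, the Activin type I receptor gene. Other genes' starts were the nearest to these 3 peaks. The put peak lay 9650 bp outside put with CG14853 nearest, the babo peak 1034 bp outside babo with CG8229 nearest, and the wit peak inside wit with CG32259 nearest. Of 5 ligand genes only gbb, a BMP ligand gene, had one (749), and it lay 1161 bp outside gbb with the start of eIF6 nearest. The ligand genes with no conservative peak were daw on 2L and mav, Actbeta and myo, all on chromosome 4. Among 8 intracellular genes 6 had a peak. They included gro, a corepressor gene, with 421, and Dad, which encodes the inhibitory Smad, with 274, while Smurf, a ubiquitin ligase gene, had none. Among 12 extracellular genes 7 had one, with 1226 for Fs, the follistatin gene, 372 for magu, 306 for vkg, a collagen IV gene, 251 for cv and 205 for dlp, a glypican gene. The Fs value belongs to a peak 5801 bp outside the gene with the start of mRpL41 nearest. Other genes' starts were also nearest to the strongest peaks of Dad (Ns1), vkg (Rtnl1), cv (CG3149) and dlp (CG43121). The vkg peak lay 7003 bp outside vkg, and the cv peak 3458 bp outside cv. For 9 of the 28 genes a peak within 10 kb had that gene's own start as the nearest, beside 14.6% of all genes at any distance.

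Of 19 genes known as targets of BMP signalling or of Brinker, 14 (73.7%) had a conservative peak within 10 kb, again beside 46.7%. The strongest were at Ance (548), with Smg5 nearest, C15 (317), a homeobox gene, Dad (274), tup (228), a LIM homeobox gene, and Doc2 (223), a T-box gene. bi followed with 198, ush, a zinc finger gene of the amnioserosa, with 179.9, bam with 179, and zen and Doc3 with 154 each. Other genes' starts were also nearest to these peaks of C15 (sp3), Dad (Ns1), tup (CG10602), bam (RpS27), zen (bcd) and Doc3 (CG5194). The C15 peak lay 7564 bp outside C15, and the zen peak 5418 bp outside zen. ush had 7 peaks and tup 5, and of these 5 and 4 had the gene's own start nearest. pnr, salm, salr, lab and hb had none. Within 2 kb of the body 9 of the 19 had a peak, beside 22.4% of all genes, and within the body 4, beside 8.5%. For 8 a peak within 10 kb had that gene's own start as the nearest, beside 14.6% of all genes at any distance. Doc1, Doc2 and Doc3 are neighbours, and so are salm and salr, and windows of neighbours can share peaks.

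The limit of 10 kb fell in a sparse stretch for most genes. The outermost peak inside it was at brk, 8149 bp from the body with a signal of 164, and the closest beyond it was also at brk, at 13569 bp with 267. For the other 6 genes with a conservative peak the closest outside lay 15292 to 56088 bp away.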

How the data were processed

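ChIP-seq was done by the submitters on 2 biological replicates, with fragments of 200 to 800 bp, per the labels. The authors deposited 4 thresholded and 4 ranked peak lists on dm6. For aligner and peak caller, names and versions were not given in the sources used here. Signal is the deposited value per peak, not scaled between lists, and was used to describe and rank peaks within a list. The deposited ranked lists give the −log10 of the global IDR, and peaks of the thresholded lists had values of at least 2.00. The number of reads is unknown.

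Peaks on 7 arms were kept (19 conservative peaks lay elsewhere). A peak was given to a gene where its summit lay in the gene or within 10 kb, so 1 peak can count for several genes. Genes were those of Ensembl release 115, and bases those of RefSeq Release 6, whose arm lengths exceed every peak end. Replicate peaks were matched by an overlap of at least 1 bp. The window count was tested on simulated data. No statistical test was run. Python 3.11.15, numpy 2.4.6, pandas 2.3.3 and scipy 1.17.1 were used. The text names all 10 members, the 10 strongest genes with a peak and up to 5 genes without in each other list, and the neighbours whose start was nearest. Members, gene lists, motifs and tests were chosen with earlier results of these data known. The class of genes of at least 30 kb was added after the data were seen, and so was the search for silencer elements across whole windows.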

Additional observations from a re-analysis of the deposited data

How the results depend on the processing

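The count of member genes with a peak was 6 to 7 over the single-replicate lists, against 7 in the conservative list, and their peaks numbered 16 to 22, against 24. The other pathway genes numbered 16 to 17 there, against 17, and the targets 12, against 14. Without replicate 1, sax had no peak and sog had 2 in place of 5, and without replicate 2 sog had 3. With summits in the gene body only, the members numbered 4 with 15 peaks, the other pathway genes 10 and the targets 4. Within 2 kb the targets numbered 9. With the stronger part of the list, the 1522 highest peaks, the members had 13 peaks. With only peaks whose nearest protein-coding start was the gene's own, the other pathway genes numbered 9 and the targets 8. Peaks with any of the 7 motifs numbered 0 within 25 bp of the summit and 7 within 100 bp, against 2 within 50 bp, while the shares of all conservative peaks were 5.81%, 29.9% and 12.3%. A narrower window or fewer peaks lowers such counts by construction. The share of all genes with a peak fell too, to 8.5% for bodies alone and 22.4% within 2 kb. It was 14.6% for own starts, with no limit on distance. Of 63 counts per gene under the alternatives, over the 7 genes with a conservative peak, 49 stayed within 1.5 times of the count reported. The exceptions include brk, with 6 peaks in the second list of both replicates in place of 3, a difference whose cause was not tested. Low numbers of peaks per gene and unknown depth limit every count given here.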
